A study of Mus musculus with 20 samples.

Results

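The T-box genes encode transcription factors that share a DNA-binding domain, the T-box, first described in the mouse Brachyury protein. The 10 members described here, *Tbx1*, *Tbx2*, *Tbx3*, *Tbx4*, *Tbx5*, *Tbx15*, *Tbx18*, *Tbx20*, *Eomes* and *Tbr1*, were chosen by name out of 21938 protein-coding genes on the annotation used. For each of them, every H3K27me3 peak less than 5 kb from a transcription start site (TSS) was listed, as was every KLF4 peak or JMJD3 position up to 50 kb from the gene. H3K27me3 ChIP-seq (chromatin immunoprecipitation followed by sequencing) peak lists came from mouse embryonic fibroblasts (MEFs) at day 0, which received no factors, and from the same kind of cells at day 5 and day 10 after viral delivery of OCT4, SOX2, KLF4 and c-MYC (OSKM). The cells were either wild-type (WT, *Jmjd3*+/+, strain C57BL/6J-OG2) or knockout (KO, *Jmjd3*-/-, strain C57Bl6J), so that genotype and strain label cannot be told apart. The study's text describes WT and KO MEFs from the same litters, without the OG2 reporter, for a reprogramming assay, which differs from these strain labels. The OSKM cells were kept in medium with vitamin C, a cofactor that raises the activity of histone demethylases such as JMJD3, and also carried either a FLAG control vector or an exogenous JMJD3, which gave 10 H3K27me3 lists. A further 2 lists gave KLF4 peaks of day 5 WT cells with FLAG or JMJD3, and the last 2 gave positions of FLAG-tagged JMJD3 in day 5 WT cells with OSKM or with OSlowKM, in which KLF4 was low. The transfection label calls the delivery lentiviral, whereas the treatment protocol and the study's methods describe retroviral vectors. The labels tie no sample to a MEF line or embryo, and the KO cells with exogenous JMJD3 carried it from the vector alone. Every group was 1 library, so no difference below has a replicate check and no p-value is given.

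H3K27me3 is placed by Polycomb repressive complex 2, mostly at CpG-rich promoters of developmental regulators, where it accompanies silencing. JMJD3, the product of *Kdm6b*, is a demethylase that takes the mark off, and KLF4 is a zinc finger factor that binds GC-rich motifs. In the embryo, *Tbx5* and *Tbx4* act in the outgrowth of the forelimb and the hindlimb, *Tbx2* and *Tbx3* in limb margins and in the non-chamber myocardium of the heart, and *Tbx15* and *Tbx18* in skeletal, dermal and epicardial mesenchyme. *Tbx1* acts in pharyngeal mesoderm and the outflow tract, *Tbx20* in cardiac progenitors, *Eomes* in mesendoderm and trophoblast, and *Tbr1* in neurons of the cerebral cortex. Below, *Tbx2*, *Tbx3*, *Tbx4*, *Tbx5*, *Tbx15* and *Tbx18* are called limb genes and *Tbx1* and *Tbx20* heart genes. *Eomes* and *Tbr1* are called the Tbr1 subfamily. These are labels for grouping, since several of the limb genes also act elsewhere, as given above.

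The H3K27me3 lists held 3045 (day 10 WT JMJD3) to 6954 (WT MEF) peaks of 1000 bp each. The number of reads behind them was not used here, and a list with fewer peaks can miss weak regions. Of 10 fibroblast genes checked, 0 to 2 had a peak near a TSS in 9 of the lists. In day 10 KO JMJD3 cells 4 did, *Col1a1*, *Thy1*, *Pdgfra* and *Postn*. Of 10 pluripotency genes, 3 (day 10 WT JMJD3) to 8 (WT MEF and day 5 WT FLAG) had one. The knockout itself cannot be checked from peak positions.

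Some stretches near the T-box genes were inside a peak of the same kind in nearly every list. Their sequences are shown because they mark where the peaks of separate libraries met. Coordinates are on GRCm38 (mm10), the strand is that of the gene, and capitals mark CpG dinucleotides. The *Tbx2* stretch is the central 200 bp of 309 bp shared by 10 lists, upstream of the gene in an intron of the non-coding transcript 2610027K06Rik. The *Eomes* stretch is the central 200 bp of 351 bp shared by 9 lists, upstream of the gene and intergenic. The *Tbx4* stretch is the 59 bp shared by 10 lists, in an intron next to an internal TSS.
Tbx2, chr11:85830115-85830314, plus strand: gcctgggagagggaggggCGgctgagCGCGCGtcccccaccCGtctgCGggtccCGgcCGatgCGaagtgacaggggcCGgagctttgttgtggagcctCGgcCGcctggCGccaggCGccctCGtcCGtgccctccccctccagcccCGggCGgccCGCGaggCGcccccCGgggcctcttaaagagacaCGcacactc
Eomes, chr9:118476501-118476700, plus strand: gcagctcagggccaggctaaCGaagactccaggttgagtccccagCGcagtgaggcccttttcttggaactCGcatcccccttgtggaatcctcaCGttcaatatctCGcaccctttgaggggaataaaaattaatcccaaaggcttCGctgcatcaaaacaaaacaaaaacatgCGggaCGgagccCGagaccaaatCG
Tbx4, chr11:85889769-85889827, plus strand: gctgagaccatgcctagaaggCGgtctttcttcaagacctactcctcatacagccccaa
The GC content of these stretches was 76% at *Tbx2*, 52% at *Eomes* and 52.5% at *Tbx4*. They held 23, 10 and 1 CpG, respectively. The ratio of observed to expected CpG was 0.80 at *Tbx2*, 0.75 at *Eomes* and 0.27 at *Tbx4*. The *Tbx4* stretch, the shortest of the 3, was thus the poorest in CpG.

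GC and CpG content were also taken over the T-box peaks as a set. The 141 peaks near the 10 genes had a GC content of 34.8 to 73.1%. The median by list was 53.3 to 61.8%, beside 51.6 to 55.2% for all peaks, and in several lists the medians were close, such as 53.3 and 52.9% in day 5 KO JMJD3 cells. The median CpG ratio of the T-box peaks was between 0.60 and 0.64 in each list, beside 0.35 to 0.49 for all peaks of the same lists. RefSeq promoters (GRCm38.p6, 300 bp around the start) were matched for 6 of the 10 genes, *Tbx1*, *Tbx4*, *Tbx18*, *Tbx20*, *Eomes* and *Tbr1*, but not for *Tbx2*, *Tbx3*, *Tbx5* and *Tbx15*. Their 7 promoters had a median CpG ratio of 0.63, beside 0.38 over 32851 promoters. The *Tbx18* promoter (0.75) had the same ratio as the *Tbx20* promoter (0.75), although *Tbx20* had H3K27me3 peaks in 9 lists and *Tbx18* in 1. The peaks of 1 gene overlap between lists, so these are not independent observations.

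The first question was which T-box genes carried H3K27me3 near a TSS and in how many lists. A peak was found in all 10 lists at 5 of the 10 genes, *Tbx1*, *Tbx2*, *Tbx4*, *Tbx5* and *Eomes*, beside 4.68% of all protein-coding genes. The number was 3, *Tbx1*, *Tbx4* and *Eomes*, within 2 kb (3.87% of all genes) and 7, with *Tbx18* and *Tbx20* added to the 5, within 10 kb (5.6%). *Tbx20* and *Tbr1* had a peak in 9 lists. The other 3 genes, all of the limb group, had a peak within 5 kb in 3 lists (*Tbx15*) or in 1 list (*Tbx3* and *Tbx18*). Within 10 kb, *Tbx18* had a peak in 10 lists, *Tbx3* in 6 and *Tbx15* in 3. By comparison, 77.6% of all genes had no peak in any list.

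By library, WT MEFs had a peak at 7 of the 10 genes (14.6% of all genes) and KO MEFs at 7 (10.3%). At day 5 the number was 7 with FLAG (14.7%) and 8 with JMJD3 (11%) in WT cells, and 7 with FLAG (13.7%) and 8 with JMJD3 (13%) in KO cells. At day 10 it was 7 with FLAG (12.1%) and 5 with JMJD3 (8.26%) in WT cells, and 7 with FLAG (12.8%) and 10 with JMJD3 (11.7%) in KO cells. With the window of 5 kb, the lowest and the highest number were both found in day 10 cells with exogenous JMJD3, in WT and in KO cells, respectively. Their lists held 3045 and 4878 peaks. Within 2 kb the numbers of these 2 lists were 4 and 7, and the highest was 8, in day 5 KO JMJD3 cells. With all lists at the length of the shortest they were 5 and 8. Shares of all genes were not computed for these counts.

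**Figure D1:**
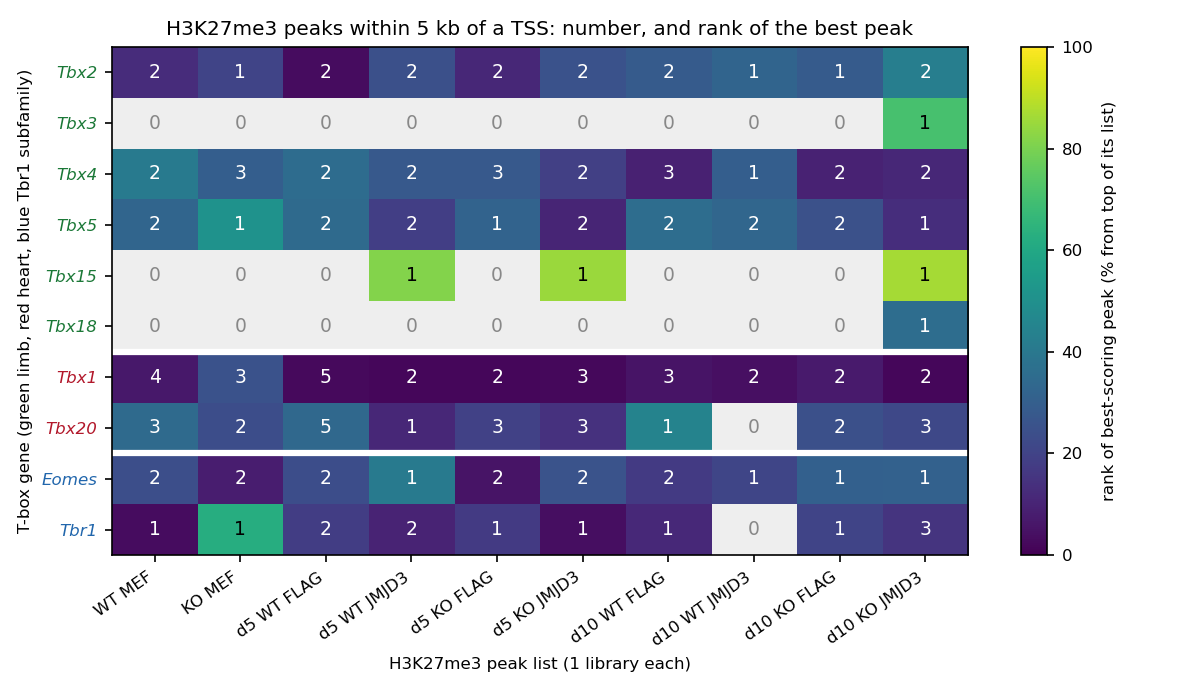
Number of H3K27me3 peaks within 5 kb of a TSS (digits) for each T-box gene (rows) in each peak list (columns, 1 library each), with the colour giving the rank of the best-scoring peak as a percentage from the top of its list and grey marking no peak. Tbx1 is near the top of its lists in 9 of 10 columns, whereas Tbx3, Tbx15 and Tbx18 are grey except in lists of cells with JMJD3.

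T-box genes with a peak often had more than 1. In day 5 WT FLAG cells 7 of 7 genes with a peak had at least 2, beside 12% of all genes with a peak, and in WT MEFs 6 of 7 did (14.5%). The number was lowest in day 10 WT JMJD3 cells, with 2 of 5 (10.1%). The score of the best peak, which ranks peaks within 1 list only and depends on the length of that list when given as a percentage, put the median T-box gene 16.5 to 29.9% from the top of its list, and the median gene with a peak 30.4 to 39%.

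Among the limb genes, *Tbx5* (chromosome 5, 119832668 to 119885219, plus strand) had peaks on both sides of the TSS. One lay upstream of the TSS in all 10 lists, at a midpoint between -3.33 and -2.5 kb. A second one lay in the gene, between 1.8 and 2.46 kb, in 7 lists, and was missing in KO MEFs, day 5 KO FLAG and day 10 KO JMJD3 cells. The upstream peak ranked 32.6% from the top in WT MEFs and 51.1% in KO MEFs. With FLAG and JMJD3, the best *Tbx5* peak ranked 34.6% and 18.4% at day 5 in WT cells and 31.9% and 10.3% in KO cells. At day 10 the ranks were 35.6% and 32.9% in WT cells, and 24.9% and 13% in KO cells. In day 10 WT cells the best peak scored 13.38 in both lists, which differ in length.

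*Tbx4* (chromosome 11, 85886422 to 85916097, plus strand) has 3 annotated TSSs, and most of its peaks lay near the first and the second of them. Between 1 and 3 peaks were called, with the best one 9.12 to 40.8% from the top. The neighbouring *Tbx2* (chromosome 11, 85832551 to 85841948, plus strand), 44.5 kb upstream of *Tbx4*, had an upstream peak in all lists at -2.68 to -1.99 kb and a second one inside the gene in 7 of them, at 4.34 to 5.46 kb. The upstream peak scored 46.5 in WT MEFs, where it ranked 12.5% from the top, and ranked 3.24% in day 5 WT FLAG cells. It ranked 24.4% in day 5 WT JMJD3 cells, and in day 10 KO JMJD3 cells it ranked 69.7%. With FLAG and JMJD3, the best *Tbx2* peak ranked 3.24 and 24.4% in day 5 WT, 11 and 25.3% in day 5 KO, 28.6 and 32.1% in day 10 WT, and 28.8 and 42.7% in day 10 KO cells. In day 10 WT cells the order depends on the length of the lists, since the peak was number 1465 from the top with FLAG and number 976 with JMJD3.

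*Tbx3* (chromosome 5, 119670669 to 119684724, plus strand) lies 148 kb upstream of *Tbx5* and had no peak within 5 kb in 9 lists. Peaks were called farther out, with the nearest one at -6.52 kb in WT MEFs and at 36.1 kb in day 5 KO FLAG cells. The number within 50 kb of the gene was 1 to 8. Its only close peak, in an intron at 2.26 kb (chromosome 5, 119672781 to 119673780), was called in day 10 KO JMJD3 cells with a score of 8.33, 71% from the top of that list.

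*Tbx18* (chromosome 9, 87702800 to 87731260, minus strand) had a peak upstream in all 10 lists, at a midpoint of -8.22 to -7.01 kb and therefore outside the 5 kb window. That peak ranked highest in day 5 KO FLAG cells, with a score of 44.8 and 7.73% from the top. As a percentage, its rank was lowest with JMJD3 in WT cells, with 77.4% at day 5 and 78.3% at day 10, beside 42 and 40.3% with FLAG. At day 10 this place depends on the length of the list. The peak was number 2383 from the top there, beside number 2066 with FLAG and number 2983 in WT MEFs. In KO cells it ranked 37.1% with JMJD3 at day 5 and 57.3% at day 10, beside 7.73 and 38.6% with FLAG. In day 10 KO JMJD3 cells a second peak appeared in an intron at 1.49 kb (chromosome 9, 87729272 to 87730271), with a score of 14.81 and 35.9% from the top.

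*Tbx15* (chromosome 3, 99240381 to 99354259, plus strand) was the member with peaks within 50 kb of the gene in the fewest lists, 5 of 10, and in WT MEFs the nearest peak was 1230 kb from the TSS. Its annotated TSS (99253760) lies inside the gene. Within 5 kb of that TSS, peaks were called in 3 of the 4 lists with JMJD3 and in none with FLAG or in MEFs. They had scores of 7.57 (day 5 WT), 7.44 (day 5 KO) and 7.21 (day 10 KO), which placed them 81.4, 85 and 86.6% from the top, near the lower end of each list. Those of day 5 WT and day 10 KO cells overlapped each other by 630 bp, with midpoints at -4.78 and -5.14 kb at the edge of the window, and that of day 5 KO cells lay at 1.27 kb. Around the 5' end of the gene the lists were others, namely the 4 KO lists of day 5 and day 10, with FLAG as well as with JMJD3, and no WT list. The best of these peaks ranked 46.8% with FLAG and 42.2% with JMJD3 at day 5, and 24.6 and 88.1% at day 10. Which lists had a peak at *Tbx15* thus depended on which start was used.

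**Figure D2:**
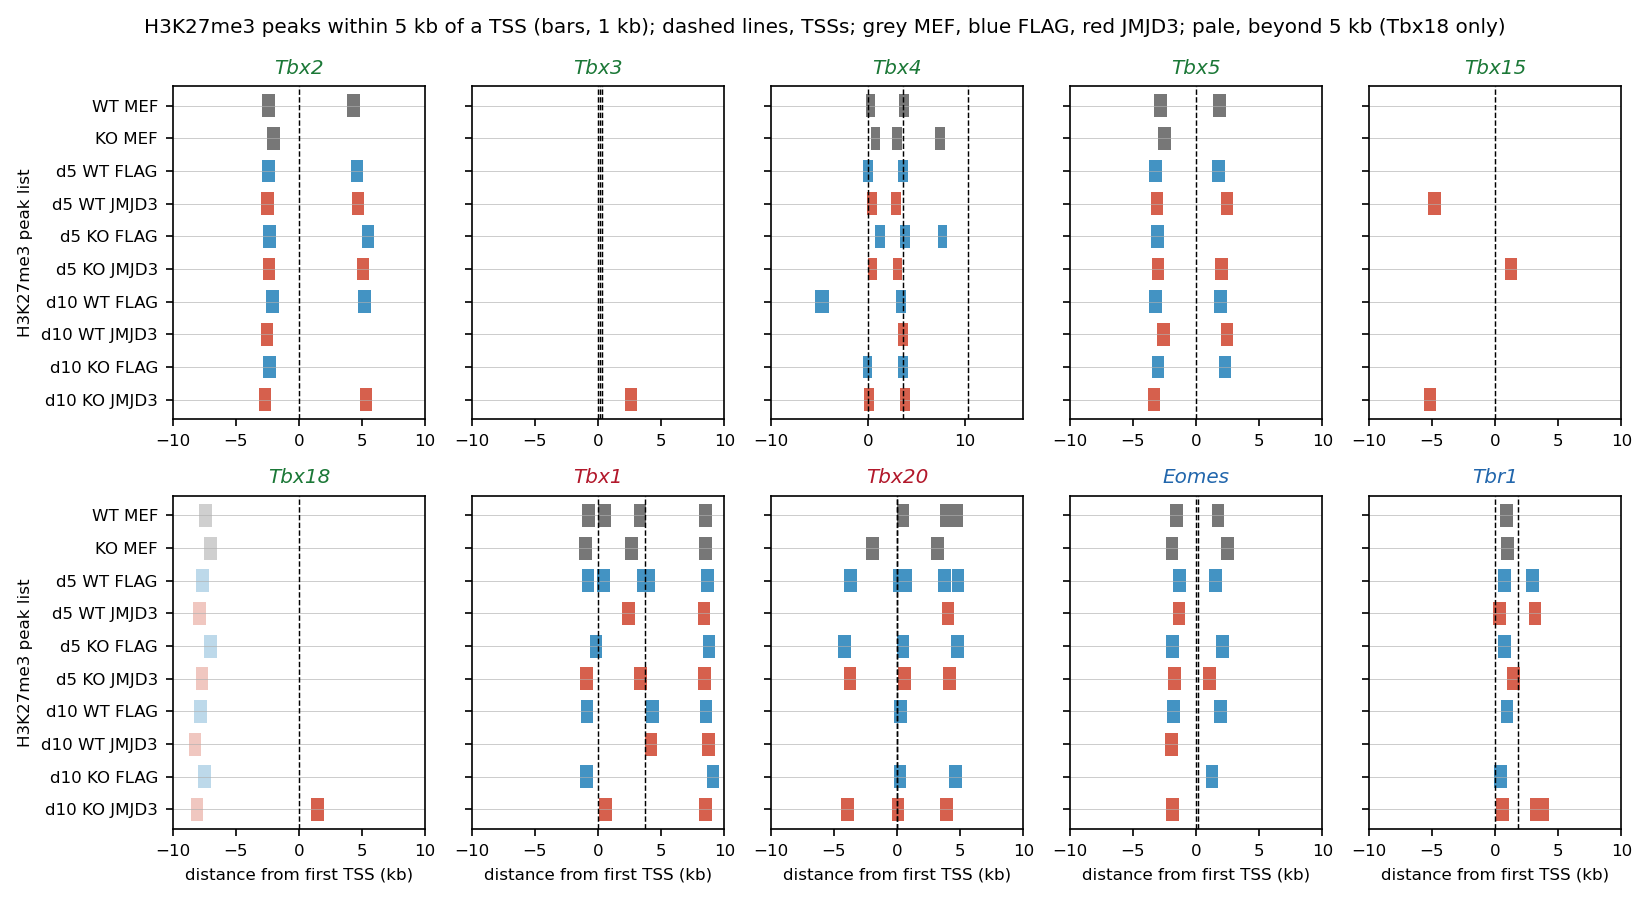
Position of every H3K27me3 peak within 5 kb of a TSS at the 10 T-box genes (horizontal axis, kb from the most upstream TSS, positive into the gene) in the 10 lists (rows; grey MEF, blue FLAG, red JMJD3), with dashed lines at annotated TSSs. Pale bars at Tbx18 are peaks beyond 5 kb, present in all 10 lists, and the Tbx5, Tbx2 and Eomes peaks fall on either side of the TSS in most rows.

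Among the genes of heart and pharyngeal mesoderm, *Tbx1* (chromosome 16, 18580979 to 18590671, minus strand) held the best-ranked T-box peak in each of the 8 lists of OSKM cells, at the 3' end of the gene. In WT MEFs the best-ranked one was at *Tbr1*, and in KO MEFs at *Eomes*. The best *Tbx1* peak ranked 6.44% from the top in WT MEFs and 25.2% in KO MEFs. With FLAG and JMJD3 it ranked 2.6 and 1.84% in day 5 WT cells, 1.7 and 2.29% in day 5 KO cells, 5.26 and 3.94% in day 10 WT cells, and 7.05 and 1.66% in day 10 KO cells. In all 10 lists a peak covered the same 297 bp near the end of the gene (chromosome 16, 18581762 to 18582058), with its midpoint in untranslated sequence. In KO MEFs that peak ranked 40.5% from the top, and the best one was upstream of the gene, at -0.971 kb.

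The covered length at *Tbx1* also depended on where the window of 5 kb ended inside the peak at the 3' end. Peaks covered 3682 bp in WT MEFs and 2674 bp in KO MEFs. In day 5 WT cells they covered 3930 bp with FLAG and 1793 bp with JMJD3, and in day 10 WT cells 2653 and 1447 bp. In KO cells they covered 1402 and 2784 bp at day 5, and 1090 and 1673 bp at day 10. With whole peaks, not cut at the window, the lengths were 4400 and 2000 bp at day 5 and 3000 and 2000 bp at day 10 in WT cells, and 2000 and 3000 bp at day 5 in KO cells. At day 10 in KO cells whole peaks gave 2000 bp in both lists, with 2 peaks each, so the difference there came from the edge of the window alone.

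*Tbx20* (chromosome 9, 24718138 to 24774303, minus strand) showed the widest range of the 10 genes. Peaks covered 2588 bp in WT MEFs and 2000 bp in KO MEFs. In day 5 WT cells 5 peaks covered 4241 bp with FLAG, and 1 peak covered 1000 bp with JMJD3. In day 10 WT cells 1 peak covered 1000 bp with FLAG and none was within 5 kb with JMJD3, where the nearest lay at -6.62 kb. In KO cells 3 peaks were called at day 5 with FLAG and with JMJD3, and at day 10 there were 2 and 3, which covered 1890 and 3000 bp. The fall at day 5 in WT cells included peaks near the bottom of the FLAG list, at 89.8 and 99.2% from the top, while the peak that was called with JMJD3 ranked 11.2% from the top of its own list.

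In the Tbr1 subfamily, *Eomes* (chromosome 9, 118478212 to 118486132, plus strand) had a peak upstream of the TSS in 9 lists, at -1.94 to -1.29 kb, and one inside the gene in 7 lists. In WT cells, the peak in the gene was called with FLAG and not with JMJD3 at both day 5 and day 10. In KO cells it was called with FLAG and JMJD3 at day 5 and with FLAG alone at day 10. The best *Eomes* peak ranked 23.9% in WT MEFs and 8% in KO MEFs, and 5.23% in day 5 KO FLAG cells.

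*Tbr1* (chromosome 2, 61802930 to 61814114, plus strand) had 1 to 3 peaks in 9 lists. Its best peak scored 88.33 in WT MEFs, at 3.29% from the top, and 9.06 in KO MEFs, at 62.4%. In day 5 cells it ranked 18.2% with FLAG and 10.1% with JMJD3 in WT, and 17% and 3.56% in KO. In day 10 WT cells it ranked 11.4% with FLAG, and with JMJD3 no peak was found within 50 kb of the gene. In day 10 KO cells it ranked 20.5% with FLAG and 15% with JMJD3, with 1 and 3 peaks.

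The next comparison asked whether T-box genes lost or gained the mark over time without exogenous JMJD3. The same 7 genes had a peak in MEFs, at day 5 with FLAG and at day 10 with FLAG, in WT and in KO cells, so that 0 of 7 were lost. Among all genes with a peak, 22.2% lost it from MEFs to day 5, 28.5% from day 5 to day 10 and 36.6% from MEFs to day 10 in WT cells. The shares were 15.2, 22.6 and 23.5% in KO cells. No T-box gene gained a peak in these steps, beside 3.93, 1.87 and 3.35% of all genes without one in WT cells and 5.51, 2.57 and 5.5% in KO cells. Without exogenous JMJD3 the genotypes also shared these 7 genes. From WT to KO, 0 of 7 were lost in MEFs (35.6% of all genes with a peak), at day 5 (17.9%) and at day 10 (18.4%). In the same settings 0 of 3 were gained (1.01, 1.83 and 3.29%).

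Within these 7 genes the covered length changed. The sum over the 10 genes was 15270 bp in WT MEFs, 18084 bp at day 5 and 11983 bp at day 10 with FLAG. In KO cells it was 12674, 12188 and 9980 bp. From MEFs to day 10 the ratio was 0.785 in WT and 0.787 in KO cells, beside 0.804 and 1.24 over all genes. From MEFs to day 5 it was 1.18 in WT and 0.962 in KO cells, beside 0.995 and 1.33. These ratios depend on the length of the lists and on peaks of low score. With all lists at the length of the shortest, the ratio from MEFs to day 10 was 1.03 in WT and 0.935 in KO cells, and that from MEFs to day 5 was 0.872 and 0.767. Of the 7 genes, 3 were lower at day 10 than in MEFs in WT cells (37.9% of genes with a peak in either) and 1 was higher (20.4%). In KO cells 4 were lower (21.2%) and 1 was higher (38.5%). With whole peaks, 2 were lower (36.6%) and 1 was higher (19.5%) in WT cells, and 3 were lower (20.2%) and 1 was higher (37.4%) in KO cells.

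Between genotypes, the covered length of T-box genes was lower in KO than in WT cells in all 3 settings without exogenous JMJD3. The ratios were 0.83 in MEFs, 0.674 at day 5 and 0.833 at day 10. Over all genes the ratios were 0.689, 0.919 and 1.06. With JMJD3 the T-box ratio of KO to WT was above 1, with 1.23 at day 5 and 2.28 at day 10, beside 1.19 and 1.48 over all genes. With all lists at the length of the shortest, the ratios without exogenous JMJD3 were 1.1 in MEFs, 0.97 at day 5 and 1 at day 10. Those with exogenous JMJD3 were 1.06 at day 5 and 1.53 at day 10. A lower length in KO cells without exogenous JMJD3 was thus not found in MEFs or at day 10 with lists of equal length. At day 5 with JMJD3, the same 8 genes had a peak in both genotypes, with 0 of 8 lost from WT to KO cells (9.16%) and 0 of 2 gained (3.39%). At day 10 with JMJD3, 0 of 5 genes were lost (12%). There, 5 genes had a peak in KO cells and none in WT cells, *Tbx3*, *Tbx15*, *Tbx18*, *Tbx20* and *Tbr1*, out of 5 without a peak in WT cells (4.82% of all such genes).

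The main question of the design was the effect of exogenous JMJD3 on the mark. At day 5, 0 of 7 T-box genes with a FLAG peak were without one in JMJD3 cells, in WT (31.8% of all genes) and in KO cells (20.5%). At day 10 in WT cells 2 of 7 were, *Tbx20* and *Tbr1* (41.3%), and in KO cells 0 of 7 were (25.1%). Among all genes whose best peak was in the better-scoring quartile of the FLAG list, 5.7% at day 5 and 17% at day 10 had none with JMJD3 in WT cells, and 2.14 and 5.19% in KO cells. *Tbr1* was in that quartile of the day 10 WT FLAG list and *Tbx20*, at 44.9% from the top, was not.

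In the opposite direction, *Tbx15* had a peak with JMJD3 and none with FLAG at day 5 in WT (1.12% of genes without a FLAG peak) and in KO cells (2.48%), counted at its annotated TSS. At day 10, 0 genes did so in WT cells (1.3%) and 3 did in KO cells, *Tbx3*, *Tbx15* and *Tbx18* (2.42%). With the 5' end of the gene alone, *Tbx15* was not among the genes gained on either day in either genotype, which left 2, *Tbx3* and *Tbx18*, at day 10 in KO cells. *Tbx3* and *Tbx18* had no peak in the other 9 lists, and of all genes without one in those 9 lists 0.526% had a peak in day 10 KO JMJD3 cells. The *Tbx18* peak was kept when each list was cut to its better-scoring 50% or to the length of the shortest list, whereas those of *Tbx3* and *Tbx15* were not. In that same library *Col1a1* and *Postn*, fibroblast genes, also had a peak and had none in the other 9 lists. Their part in the result was not tested.

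Measured as covered length with all peaks of each list, T-box genes with JMJD3 were lower than with FLAG in WT cells and higher in KO cells. At day 5, the sum over the 10 genes went from 18084 bp with FLAG to 12343 bp with JMJD3 in WT cells, a ratio of 0.683 beside 0.761 over all genes. In KO cells it went from 12188 to 15215 bp, a ratio of 1.25 beside 0.989. At day 10, it went from 11983 to 6447 bp in WT cells, a ratio of 0.538 beside 0.673, and from 9980 to 14712 bp in KO cells, a ratio of 1.47 beside 0.937. Peak numbers per list moved too. With all lists at the length of the shortest, the day 5 ratio was 1.26 in WT and 1.37 in KO cells, and the day 10 ratio 0.648 and 0.988, so the genotypes were then on the same side of 1 on each day. The day 5 WT ratio was also above 1, at 1.12, with the better-scoring 50% of each list. With whole peaks the ratios were 0.686 and 1.14 at day 5 and 0.519 and 1.5 at day 10.

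**Figure D3:**
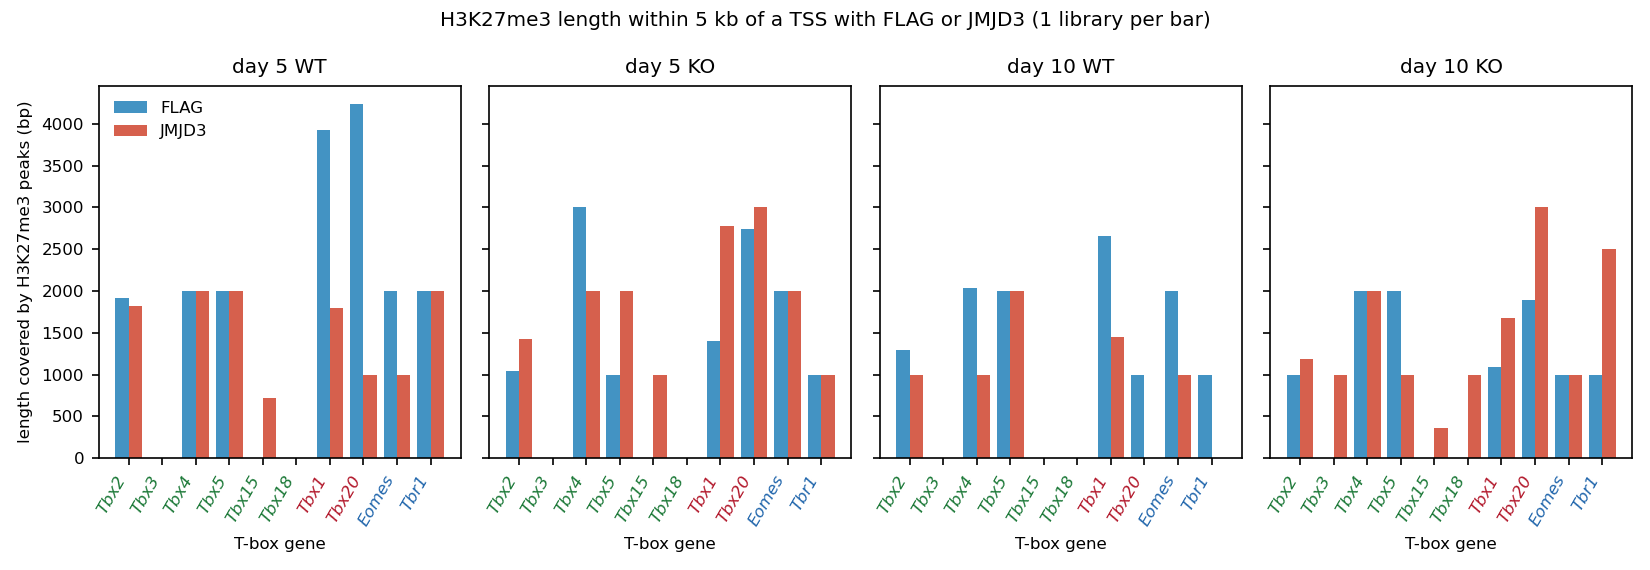
Length in bp covered by H3K27me3 peaks within 5 kb of a TSS (vertical axis) for each T-box gene with FLAG (blue) or JMJD3 (red), in 4 panels by day and genotype, 1 library per bar. Tbx1 and Tbx20 are lower with JMJD3 in both WT panels, and the higher Tbx1 bar with JMJD3 in the day 10 KO panel reflects where the window cuts a peak, with 2 peaks in each list.

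Counted by gene, 4 of 8 T-box genes with a peak in either list were lower with JMJD3 at day 5 in WT cells (35.7% of all such genes) and 1 was higher (11.8%). At day 5 in KO cells 1 of 8 was lower (22%) and 5 were higher (20.9%). At day 10 in WT cells 6 of 7 were lower (44.1%) and 0 higher (12.6%), the exception being *Tbx5* with 2000 bp in both. At day 10 in KO cells 1 of 10 was lower (27.1%), again *Tbx5*, and 7 were higher (20.8%). Some of these genes had the same number of peaks in both lists and differed only in where the window cut one. With whole peaks, 3 were lower (34.5%) and 1 higher (10.6%) at day 5 in WT cells, and 1 was lower (20.7%) and 3 higher (19.7%) at day 5 in KO cells. At day 10, 6 were lower (42.8%) and 0 higher (11.5%) in WT cells, and 1 was lower (26.1%) and 6 were higher (19.3%) in KO cells. The genes no longer counted were *Tbx2* at day 5 in WT cells, *Tbx2* and *Tbx20* at day 5 in KO cells, and *Tbx1* at day 10 in KO cells.

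By role, with all peaks and the window of 5 kb, the sums were as follows. At day 5 in WT cells, *Tbx1* and *Tbx20* together went from 8171 bp with FLAG to 2793 bp with JMJD3. Behind their FLAG sum were low-ranked peaks, numbers 3058, 4349, 4829 and 6324 at *Tbx1*. At *Tbx20* these were numbers 3691, 3870, 5774 and 6376. All of them lie beyond the 3045 peaks of the shortest list, whereas the JMJD3 peaks of both genes, numbers 93, 1091 and 566, do not. Role sums at equal list length were not computed. The 6 limb genes went from 5913 to 6550 bp, and *Eomes* and *Tbr1* from 4000 to 3000 bp. The limb sum rose through the 1 low-ranked *Tbx15* peak at the edge of the window, and without *Tbx15* it went from 5913 to 5824 bp. At day 5 in KO cells the heart genes went from 4143 to 5784 bp and the limb genes from 5045 to 6431 bp, or from 5045 to 5431 bp without *Tbx15*, while *Eomes* and *Tbr1* had 3000 bp in both lists. At day 10 in WT cells all 3 groups were lower with JMJD3, with 3653 and 1447 bp for the heart genes, 5330 and 4000 bp for the limb genes, and 3000 and 1000 bp for *Eomes* and *Tbr1*. In day 10 KO cells all 3 were higher, with 2980 and 4673 bp, 5000 and 6539 bp, and 2000 and 3500 bp.

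**Figure D4:**
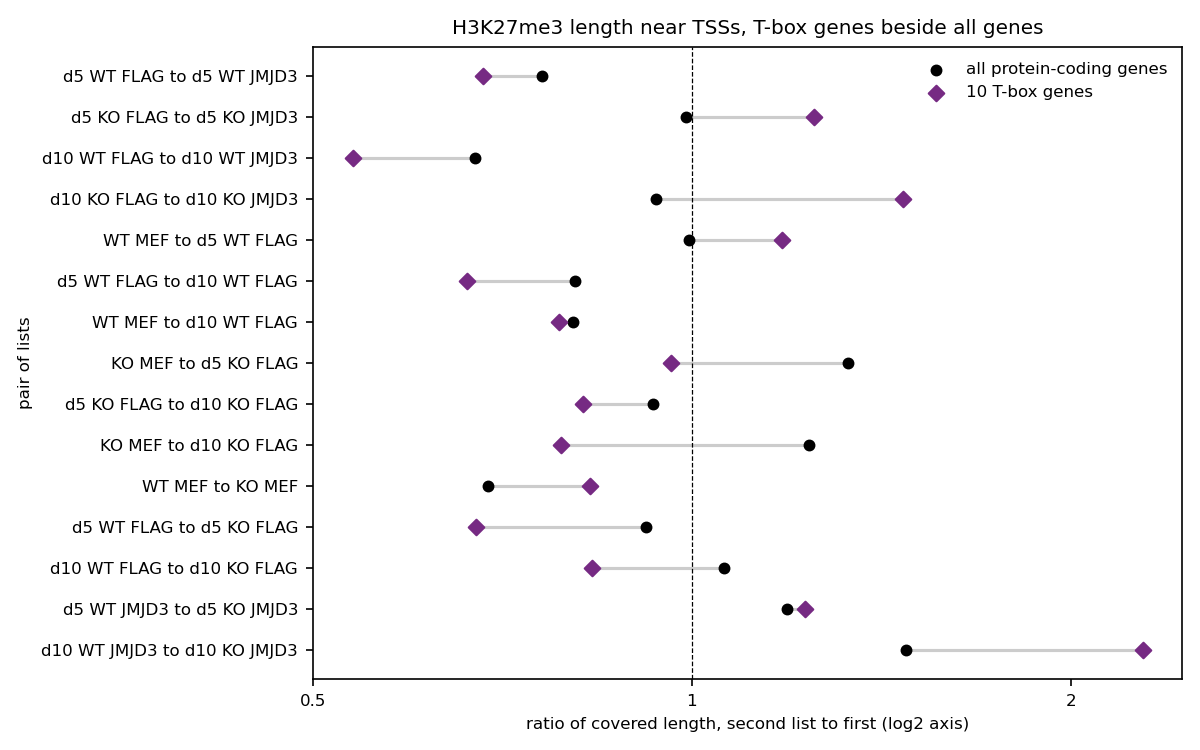
Ratio of the length covered by H3K27me3 peaks near TSSs between the lists of each pair (horizontal axis, log2 scale, second list over first) for the 10 T-box genes (diamonds) and all protein-coding genes (dots). The pair of day 10 lists with JMJD3 shows the largest ratio, 2.28 for T-box genes and 1.48 for all genes.

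KLF4 and JMJD3 were mapped at day 5 in WT cells, to ask whether they were found close to the same genes. A KLF4 peak lay within 50 kb of 2 of the 10 T-box genes in FLAG cells, *Tbx1* and *Tbx15* (59.5% of all genes), and of 3 in JMJD3 cells, *Tbx1*, *Tbx2* and *Tbx15* (67.2%). A JMJD3 position lay within 50 kb of 5 genes with OSKM, *Tbx4*, *Tbx15*, *Tbx18*, *Eomes* and *Tbr1* (55.6%), and of 0 with OSlowKM (14.1%), whose list was the shortest with 2284 positions. *Tbx3*, *Tbx5* and *Tbx20* had neither. The share with KLF4 was thus below that of all genes. None of these KLF4 peaks and JMJD3 positions near T-box genes overlapped an H3K27me3 peak of any list. The share of all KLF4 peaks and JMJD3 positions that overlap one was not computed, so this cannot be read as particular to these genes.

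**Figure D5:**
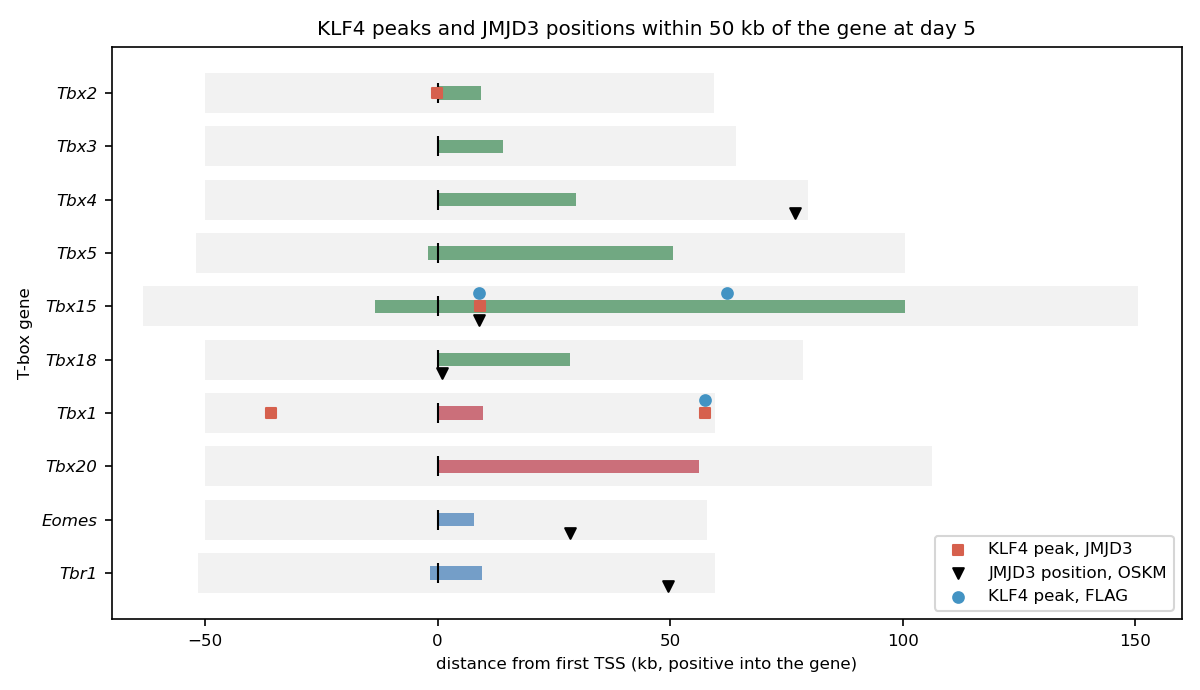
KLF4 peaks with FLAG (circles) or JMJD3 (squares) and JMJD3 positions with OSKM (triangles) within 50 kb of each T-box gene, by distance from the most upstream TSS in kb (horizontal axis, positive into the gene). Coloured bars are the genes, pale bars the searched region, and Tbx15 is the only gene with all 3 kinds of mark at about 9 kb.

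The sequences of 200 bp at the sites inside or next to *Tbx2*, *Tbx15* and *Tbx18* are shown because these genes differ in H3K27me3, and that of the KLF4 peak shared by both lists near *Tbx1* because of what it matched. They are on the strand of the gene and centred on the peak or position. Capitals mark a motif match at *Tbx15*, and at *Tbx1* an exact match to an 18S ribosomal RNA sequence.
Tbx2, KLF4 with JMJD3, chr11:85832241-85832440, plus strand: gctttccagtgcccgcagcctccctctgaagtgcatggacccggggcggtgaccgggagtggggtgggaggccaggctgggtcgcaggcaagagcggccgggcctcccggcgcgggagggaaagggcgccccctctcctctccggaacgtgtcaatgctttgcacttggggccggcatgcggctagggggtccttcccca
Tbx15, KLF4 with JMJD3, chr3:99262712-99262911, plus strand: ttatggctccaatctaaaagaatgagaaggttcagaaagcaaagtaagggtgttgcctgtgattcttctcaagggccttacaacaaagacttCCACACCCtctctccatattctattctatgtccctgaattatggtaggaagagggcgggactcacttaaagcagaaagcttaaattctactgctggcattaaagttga
Tbx18, JMJD3 with OSKM, chr9:87730249-87730448, minus strand: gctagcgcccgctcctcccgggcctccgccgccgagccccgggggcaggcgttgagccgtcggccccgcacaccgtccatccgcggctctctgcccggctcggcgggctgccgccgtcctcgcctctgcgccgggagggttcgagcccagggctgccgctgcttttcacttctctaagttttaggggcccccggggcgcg
Tbx1, KLF4 with FLAG and JMJD3, chr16:18533164-18533363, minus strand: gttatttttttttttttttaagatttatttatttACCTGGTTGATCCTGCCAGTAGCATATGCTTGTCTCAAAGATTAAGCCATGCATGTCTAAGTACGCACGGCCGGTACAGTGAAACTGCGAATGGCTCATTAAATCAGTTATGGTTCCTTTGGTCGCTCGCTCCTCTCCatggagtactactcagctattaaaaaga
Fixed strings were searched on both strands, GGGCGTGG or GGGTGTGG for KLF, AGGTGTGA for the T-box element, TGAGTCA for AP-1, ATGCAAAT for OCT and AACAATG for SOX. GGGTGTGG and AGGTGTGA share the letters GGTGTG. The KLF strings were present in 28.2% of windows in the KLF4 JMJD3 list, in 8.15% of the JMJD3 OSKM windows and in 8.58% of all promoters of 300 bp.

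At *Tbx2*, a KLF4 peak was called with JMJD3 and not with FLAG, 59 bp upstream of the gene (chromosome 11, 85832188 to 85832492). Its window had a GC content of 71% with 15 CpG and none of the strings searched. It lay 1129 bp from the nearest H3K27me3 peak, that of KO MEFs, and 1550 bp from the upstream peak of day 5 WT FLAG cells described above, both measured from edge to edge. By width it ranked 46.6% from the top of its list.

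At *Tbx15*, KLF4 peaks with FLAG (chromosome 3, 99262630 to 99262934) and with JMJD3 (99262636 to 99262987) overlapped in an intron, and the JMJD3 position (99262750) lay inside both. The window held 1 KLF string on the opposite strand, from position 93. Its GC content was 41.5% with 1 CpG. A second KLF4 peak in the gene (99315950 to 99316123) was called with FLAG alone and was among the narrowest, 93.4% from the top by width.

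At *Tbx18*, the JMJD3 position (chromosome 9, 87730348) lay in an intron 0.912 kb downstream of the TSS and in an exon of the overlapping transcript D030062O11Rik, in a window with a GC content of 76% and 27 CpG. None of the strings was found there. In day 5 WT FLAG cells the edge of the nearest H3K27me3 peak was 8.03 kb away. The *Tbx18* peak of day 10 KO JMJD3 cells ended 77 bp from this position, in cells of another genotype and day. Of the other JMJD3 positions, that of *Tbx4* was 47.1 kb, that of *Tbr1* 39.9 kb and that of *Eomes* 20.6 kb from the gene, the last inside an intron of *Golga4*. The *Tbx4* window held 1 AP-1 string, found in 7.59% of the windows of that list.

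At *Tbx1*, the KLF4 peak that was called in both lists lay 47.5 kb from the gene in an intron of *Gnb1l* (chromosome 16, 18533092 to 18533442 with FLAG). Positions 35 to 172 of its window, 138 bp, matched exactly an 18S ribosomal RNA sequence that RefSeq annotates on chromosome 17 (Rn18s-rs5, 39846354 to 39848202). The longest exact match of the other site windows was 12 bp. This peak is uncertain as a site next to *Tbx1*, since reads of ribosomal DNA and of this copy cannot be told apart in the lists, and it was the only KLF4 peak near *Tbx1* with FLAG. A second KLF4 peak, called with JMJD3 alone, lay 35.7 kb from *Tbx1* (18626336 to 18626613) at *Sept5*.

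The rest of the family and a list of partners give the setting. Of the 7 other T-box genes, *T* (Brachyury) and *Tbx21*, a regulator of T helper cells, had a peak in all 10 lists, *Tbx10* in 5 and *Tbx22* in 2. *Tbx6*, *Tbx19* and *Mga*, whose product also carries a bHLHZip domain, had none in any list. Of these 7 genes, 4 had a KLF4 peak within 50 kb with FLAG (59.5% of all genes) and 5 with JMJD3 (67.2%). A JMJD3 position lay near 2 with OSKM (55.6%) and 0 with OSlowKM (14.1%). Among 25 regulators and targets of limb and heart development, such as *Nkx2-5*, *Gata4*, *Hand1*, *Pitx1* and *Fgf8*, 16 (day 10 WT JMJD3) to 21 (WT MEF and day 5 WT FLAG) had an H3K27me3 peak. For these 25 genes, a KLF4 peak lay within 50 kb of 8 with FLAG (59.5%) and 8 with JMJD3 (67.2%). A JMJD3 position lay near 9 with OSKM (55.6%) and 4 with OSlowKM (14.1%). At day 10 with JMJD3 the partners had a peak at 16 in WT and 20 in KO cells, beside 5 and 10 of the T-box genes.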

How the data were processed

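H3K27me3, KLF4 and JMJD3 peak lists of 14 of 20 samples were used. The 4 inputs and 2 H3K27ac samples were not used here. Per the study's methods and the submitters' processing notes, the authors aligned reads to mm10 with bowtie2 (2.2.0 in the notes) and called peaks with DFilter (H3K27me3) or MACS2 (KLF4, JMJD3). A *Drosophila* spike-in was added for H3K27me3, and mouse reads were scaled by the number of reads that mapped to *Drosophila*. Whether the scaled reads entered the peak calls is not given in the sources used here. The deposited H3K27me3 lists carry a score on an unstated scale, which was used to rank peaks within a list. Single scores are also printed, and cannot be read across lists because the scale is not given. The deposited KLF4 intervals and JMJD3 positions have no score. Lists hold no read counts, so peak numbers do not measure how much of the mark was present.

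TSSs were those of GENCODE M21 basic protein-coding transcripts. A peak counted with at least 1 bp within 5 kb of a TSS, or within 50 kb of the gene. Covered length is the union of peaks in the window. Positions are midpoints, negative upstream. The sequences of other shared stretches are not reported here. Sequences came from GRCm38.p6, where 658 of 658 RefSeq promoters checked were identical. Members and gene lists were chosen with earlier results of these data known. All 10 members, the 7 other T-box genes and 25 partners are named by these lists, while single marker genes were named after their values were seen. Groups of 1 library allow no test. Alternatives were 2 and 10 kb, the 5' end alone, peak midpoints, the better-scoring 50%, equal list lengths, whole peaks not cut at the window (added later), 10 and 100 kb, 50 kb of a TSS, and the wider 50%. On simulated data 200 of 200 planted genes were recovered, and a brute-force search gave the same result for 500 of 500 genes in WT MEFs. Python 3.11.15, numpy 2.4.6, pysam 0.24.0, samtools 1.23.1 and matplotlib 3.10.9 were used.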

Additional observations from a re-analysis of the deposited data

Results flagged for a closer look

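The covered length near the 10 T-box genes moved in opposite directions between groups in 5 contrasts when all peaks of each list were used. None of these differences was tested, since each group was 1 library. The ratio of JMJD3 to FLAG was 0.683 in WT cells and 1.25 in KO cells at day 5, and at day 10 it was 0.538 in WT cells and 1.47 in KO cells. Seen by genotype, the ratio of KO to WT was 0.674 with FLAG and 1.23 with JMJD3 at day 5, and 0.833 with FLAG and 2.28 with JMJD3 at day 10. These use the same 8 libraries as the ratios of JMJD3 to FLAG. From MEFs to day 5 with FLAG the ratio was 1.18 in WT and 0.962 in KO cells. The number of peaks per list differed between these libraries as well. With all lists at the length of the shortest, the day 5 ratios of JMJD3 to FLAG were 1.26 in WT and 1.37 in KO cells, and those of day 10 were 0.648 and 0.988, so neither pair was opposite any more. At that length the ratio of KO to WT was 0.97 with FLAG and 1.06 with JMJD3 at day 5, and 1 and 1.53 at day 10. From MEFs to day 5 it was 0.872 in WT and 0.767 in KO cells, on the same side of 1. With whole peaks, not cut at the window, the last contrast was not opposite either, at 1.2 in WT and 1.08 in KO cells.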

How the results depend on the processing

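Over 38 results, 218 values were computed under the alternatives, of which 178 kept their direction and stayed within 1.5 times the reported value. The ratio of covered length, JMJD3 to FLAG, crossed 1 in 3 cases. At day 5 in WT cells it was 1.12 with the better-scoring 50% of each list and 1.26 with all lists at the length of the shortest, and at day 10 in KO cells it was 0.988 with that length. Other ratios of covered length crossed 1 as well. With lists at the length of the shortest, they were 1.1 for KO to WT MEFs, 1 for day 10 KO to WT with FLAG, 0.872, 1.18 and 1.03 for MEFs to day 5, day 5 to day 10 and MEFs to day 10 in WT cells with FLAG, and 1.22 for day 5 to day 10 in KO cells with FLAG. With the better-scoring 50%, MEFs to day 5 gave 0.808 in WT and 1.23 in KO cells, and MEFs to day 10 gave 1.2 in KO cells. In KO cells, MEFs to day 5 gave 1.12 within 10 kb, 1.07 with the 5' end alone and 1.08 with whole peaks, and day 5 to day 10 gave 1.01 within 2 kb. Whole peaks, an alternative chosen after seeing the data, moved no other ratio across 1. A peak in all 10 lists was found at 3 genes within 2 kb, and at 4 to 7 under the other alternatives. The day 10 WT ratio was 0.354 within 2 kb. Within 2 kb, 1 gene lost its peak with JMJD3 at day 5 in WT cells and 2 at day 10 in KO cells, and 0 gained one at day 5 in WT and 2 in KO cells. Within 10 kb, 8 genes had a peak in day 10 WT JMJD3 cells, 1 was lost and 1 gained there, and 2 were gained at day 5 in KO cells. With the 5' end alone, the better-scoring 50% or equal lengths, 0 genes were gained at day 5 in WT and KO cells, and at day 10 in KO cells 2 were gained with the 5' end alone and 1 in the other 2 settings. KLF4 with FLAG was near 1 gene within 10 kb, 4 within 100 kb and 1 within 50 kb of a TSS. KLF4 with JMJD3 was near 5 genes within 100 kb. JMJD3 with OSKM was near 2 genes within 10 kb, and with OSlowKM near 1 within 100 kb. The cause of these moves was not tested, except that narrower windows and shorter lists hold fewer peaks. The gene counts given here under the alternatives have no share over all genes beside them, and so cannot be set against all genes. The exception is a peak in all 10 lists within 2 and 10 kb, whose shares are given above. No paired analysis was possible because every group had 1 library and the labels give no replicate numbers. Read depth was not used and there are no replicates, so no difference between lists can be set against sampling error. Genotype is confounded with the strain label.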
